A study of Arabidopsis thaliana with 6 samples.

Results

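The microRNA (miRNA) genes of 26 numbered families, MIR156 to MIR172 and MIR390 to MIR399, were examined for PIF4 binding in dark-grown Arabidopsis thaliana seedlings. Members were chosen by symbol alone, as annotated miRNA genes with a number in these ranges and at most a letter suffix, which gave 93 of the 326 miRNA genes and of 37899 annotated genes on chromosomes 1 to 5. Peaks were assigned by summit, which had to fall inside a gene or no more than 2 kb beyond it on either side. The files hold no cross-species comparison, so the name "conserved" rests on background knowledge, and MIR158, MIR161 and MIR163 of this number range are known mainly from the mustard family. They made up 4 of the 93 genes.

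PIF4 is a bHLH transcription factor that promotes elongation growth in darkness and is removed after light activates phytochrome. Plant miRNA genes are transcribed by RNA polymerase II into long precursors, which DICER-LIKE 1 cuts into short RNAs that guide ARGONAUTE proteins to matching transcripts. The families studied here are best known for silencing transcription factors of growth, auxin response and phase change, and transcripts of nutrient uptake.

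Chromatin from whole seedlings was precipitated with an anti-Myc antibody in 2 groups of 3 libraries each. The PIF4-Myc group was a line overexpressing Myc-tagged PIF4, which the design text names P1M although the labels say PIF4. The wild-type group carried no transgene named in the labels and was precipitated with the same antibody. All seedlings received 3 h of white light to start germination and grew for 3 days in darkness at 21 °C. Each library pooled DNA of 4 ChIP assays from 2 biological replicates. The transgene was overexpressed, whole seedlings mix all cell types, and peak lists carry no expression by which the tissue could be checked. Nothing in the labels gives the promoter or the number of transgenic lines.

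The data were 3 peak lists, 1 for each PIF4-Myc library, with wild-type libraries serving as their controls. Lists 1, 2 and 3 held 12177, 4093 and 2931 peaks, from 12766185, 9385807 and 12292381 treatment tags per the file headers. The fold enrichment of a peak is the authors' ratio of tags to the local expectation, so 1 would mean no enrichment. That reading fails for list 1, where 51.2% of peaks had a fold below 1 although all were called as enriched. In lists 2 and 3 the share was 0%. List 1 folds are therefore given as listed, are not read against 1, and are not compared in size with those of lists 2 and 3. The cause of this difference was not tested. The median folds of lists 1, 2 and 3 were 0.990, 2.46 and 4.17, and folds carry no replicate error. The false discovery rate given by the authors' peak caller had a median of 3.81%, 63.9% and 65.2%. Lists 1 and 2 name the same control, and lists 2 and 3 often begin peaks at the same base, so agreement between lists is given as a count and not as independent replication.

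At the conserved families a peak lay at 41 of 93 genes in at least 1 list and at 52 in no list. List 1 had a peak at 29 genes (31.2%), against 27.9% of the 233 miRNA genes outside the families and 53.2% of 27444 protein-coding genes. List 2 had one at 23 genes (24.7%), against 12.9% of other miRNA genes and 19.0% of protein-coding genes. List 3 had one at 16 genes (17.2%), against 6.01% and 14.2%. The conserved genes thus had a lower share than protein-coding genes in list 1, a somewhat higher one in lists 2 and 3, and a higher one than other miRNA genes in each list. The lower share in list 1 was not seen with the 2931 best-ranked peaks of each list. There, list 1 had a peak at 15.1% of the conserved genes, against 14.6% of protein-coding genes. At a false discovery rate of 1% or less the shares were 1.08% and 0.572%, from 1 conserved gene. The lower share remained with summits within 1 kb (20.4% against 42.4%) and 5 kb (62.4% against 75.2%). It also remained with the nearest annotated gene alone (14.0% against 31.8%) and in the better-ranked 50% of the list (18.3% against 29.7%).

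Peaks in at least 2 lists were found at 21 genes (22.6%), against 8.58% of other miRNA genes and 18.2% of protein-coding genes. Both list 2 and list 3 had a peak at 15 genes (16.1%), against 3.86% and 11.9%. All 3 lists had a peak at 6 genes (6.45%), against 1.29% and 7.82%. The order for all 3 lists turned when the peaks had to overlap by at least 1 bp, at 5.38% of conserved genes against 3.98% of protein-coding genes, and in the better-ranked 50% of each list, at 3.23% against 2.46%. It did not turn with an overlap of 50% of both peaks (0% against 0.506%) or summits within 100 bp (0% against 1.85%). Nor did it within 1 kb (3.23% against 4.75%) or 5 kb (18.3% against 18.4%). With the nearest annotated gene alone the shares were 3.23% and 3.34%, and with equal numbers of peaks 2.15% and 2.16%. With list 1 left out, both remaining lists had a peak at 15 genes, with list 3 left out at 12 and with list 2 left out at 6, against 11.9%, 12.7% and 9.23% of protein-coding genes. None of these shares was tested.

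**Figure D1:**
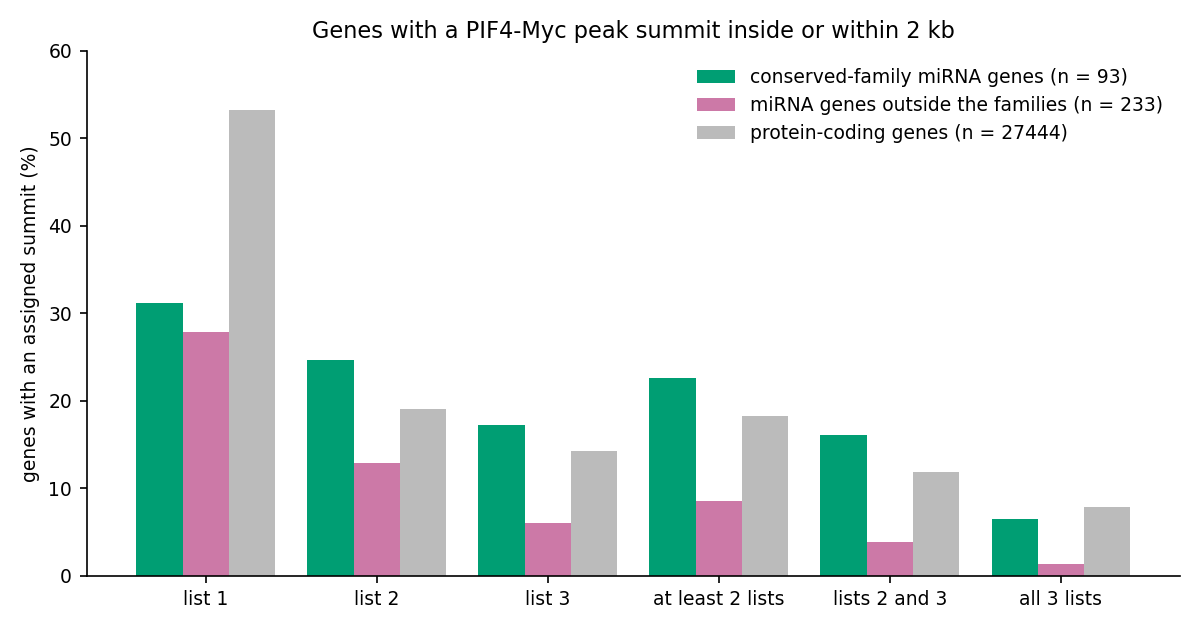
Share of genes, in percent, with a peak summit inside the gene or within 2 kb, for conserved-family miRNA genes (green), miRNA genes outside the families (pink) and protein-coding genes (grey), by list and combination of lists. In lists 2 and 3 together the share was 16.1% for conserved-family genes, 3.86% for other miRNA genes and 11.9% for protein-coding genes.

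Gene length bears on these shares. The annotated miRNA genes of the families had a median length of 123 bp, those outside the families 160 bp, and protein-coding genes 2078 bp. The windows of protein-coding genes were therefore longer. All distances to the miRNA genes of the families were taken from these annotated ends, with lengths of 68 to 411 bp. The long precursors were not considered, so a summit may lie nearer to a precursor, or inside it, than the distances given here show. Per 100 kb of window, merged where windows overlapped, list 3 had 6.26 summits around conserved miRNA genes, 1.77 around other miRNA genes and 2.69 around protein-coding genes. In list 2 the density was 8.81 per 100 kb around conserved miRNA genes, 4.09 around other miRNA genes and 3.68 around protein-coding genes. In list 1 it was 10.2, 9.29 and 11.5. Of the conserved windows, 73.2% lay outside protein-coding genes, against 54.8% for other miRNA genes and 34.0% for protein-coding genes. Counting only that sequence, list 3 had 7.77 summits per 100 kb around conserved miRNA genes, 1.82 around other miRNA genes and 4.78 around protein-coding genes, and list 2 had 10.5, 4.24 and 6.09. List 1 had 10.9, 7.47 and 10.6. These densities are descriptions, and several summits can belong to 1 gene.

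Families differed in how many of their genes held a peak. A peak in both list 2 and list 3 was found in 11 of the 26 families, and a peak in all 3 lists in 4 (MIR159, MIR168, MIR169 and MIR396). Both MIR396 genes and 2 of 3 MIR159 genes were among them, while only 1 of 14 MIR169 genes was. The 15 genes of lists 2 and 3 had a median top fold of 3.12 in list 2 and 4.58 in list 3. The 3254 protein-coding genes with a peak in both lists had 2.75 and 4.38, and the 9 other miRNA genes 2.38 and 4.09. Top fold here means the highest fold among a gene's assigned peaks in a list. It was higher in list 3 than in list 2 at all 15 genes, as at 3246 of the 3254 protein-coding genes.

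**Figure D2:**
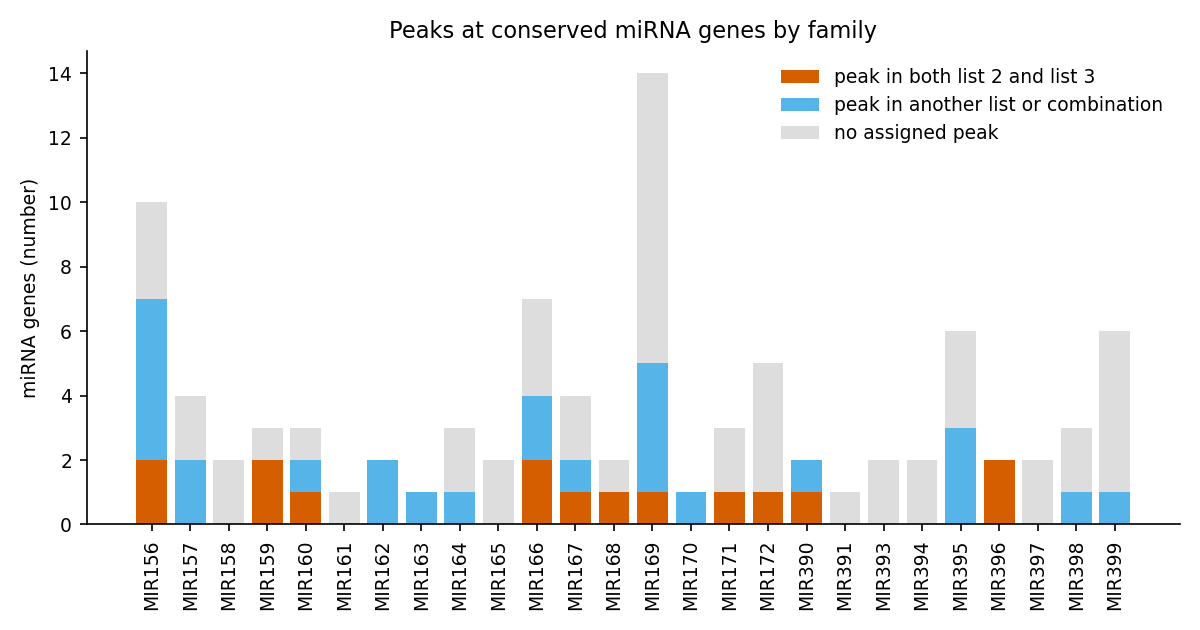
Number of miRNA genes per family with a peak in both list 2 and list 3 (orange), with a peak in another list or combination (blue) and with no assigned peak (grey). MIR396 is the family with both of its 2 genes in orange, and MIR169, the largest with 14 genes, has 1.

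**Figure D3:**
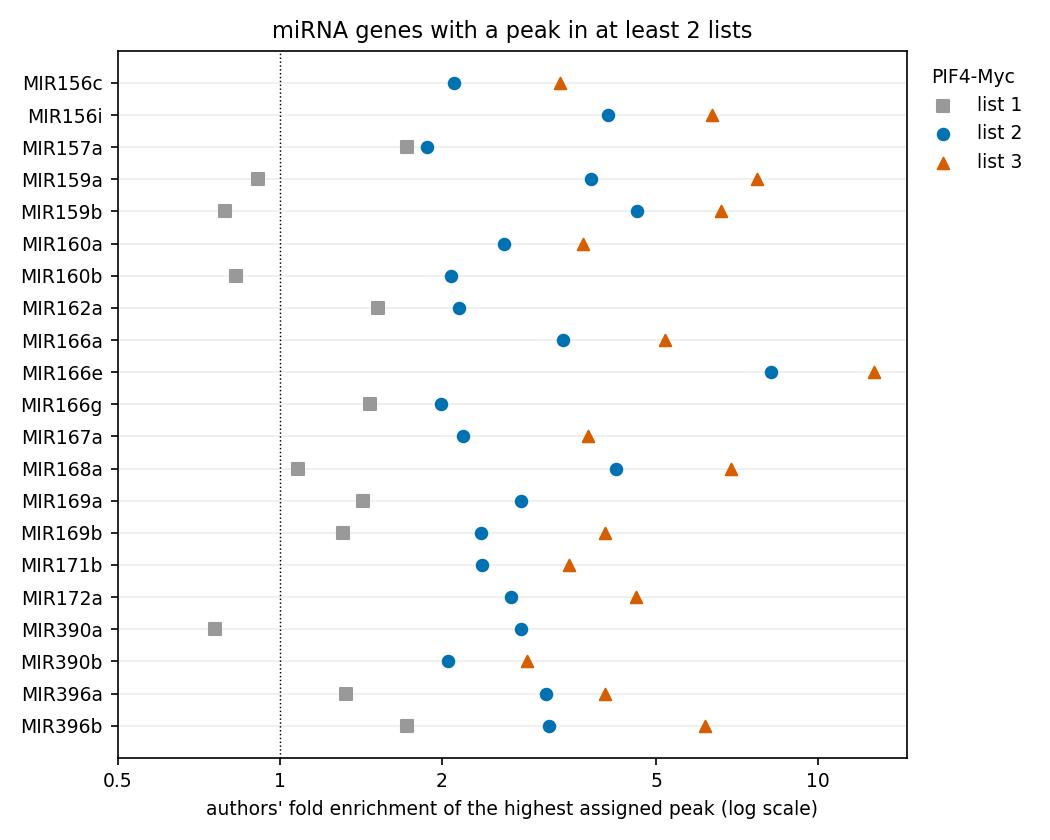
Authors' fold enrichment (log scale) of the highest assigned peak in list 1 (grey squares), list 2 (blue circles) and list 3 (orange triangles) for the 21 miRNA genes with a peak in at least 2 lists. MIR166e had the highest folds, 8.18 and 12.71, and the dotted line marks a fold of 1, against which list 1 folds are not read.

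The miR156 and miR157 families, which hold back SPL factors and so prolong the juvenile phase, had a peak in at least 1 list at 9 of 14 genes but in both list 2 and list 3 at 2. MIR156c had a broad peak at 15412396 to 15416349 on chromosome 4 (TAIR10), with folds of 2.11 in list 2 and 3.32 in list 3 and 918 and 783 tags. Its summits lay 517 and 496 bp from the miRNA gene and over 2.9 kb from the nearest protein-coding gene, AT4G31880. MIR156i had folds of 4.07 in list 2 and 6.36 in list 3 at 19804815 to 19805484 on chromosome 1, with summits 1734 and 1711 bp away. A list 2 peak nearer to the gene, with its summit 633 bp away inside SPL4, had a fold of 1.75 and a false discovery rate of 85.68%.

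The annotation places MIR156i entirely inside SPL4, itself a target of miR156, and SPL4 was nearer to the 2 farther summits, at 1080 and 1057 bp. MIR156j is likewise annotated inside SPL9, another miR156 target, and had a list 1 peak of fold 1.41 whose summit lay 1978 bp away inside OEP16-3. A peak there cannot be given to the miRNA gene rather than to the SPL gene. In all, 7 of the 93 miRNA genes overlapped a protein-coding gene, and MIR156i was the only one of these with a peak in both list 2 and list 3.

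MIR157a had folds of 1.72 in list 1 and 1.88 in list 2, and the overlapping list 1 peak had 1.31. MIR156a had a peak in list 2 alone with a fold of 2.31, and its rate of 87.27% by the authors' peak caller was the highest among list 2 peaks at these genes. Of the genes with a list 1 peak alone, MIR157d reached 1.68 and MIR156e 1.53. Of miR172, which acts in the phase change opposite to miR156 by silencing AP2-like repressors of flowering, 1 of 5 genes held a peak. MIR172a had folds of 2.45 and 2.69 in list 2 and of 4.58 and 3.49 in list 3, from peaks on either side of the gene. The peaks of fold 2.45 and 4.58 overlapped at 11941036 to 11941627 on chromosome 2, and the other 2 did not overlap.

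Of the families that act on auxin response, miR160, miR167 and miR390 genes held peaks and miR393 genes did not. MIR160a, of the family that silences ARF10, ARF16 and ARF17, reached 2.61-fold enrichment in list 2 and 3.65-fold in list 3 at 16338949 to 16339559 on chromosome 2, and the nearest protein-coding gene was 3087 bp from the list 2 summit. A long noncoding RNA gene, AT2G09010, was the annotated gene nearest to the summits of both lists. MIR160b had 0.83 in list 1 and 2.08 in list 2. MIR167a, of the family that silences ARF6 and ARF8, had 2.19 and 3.73 in lists 2 and 3 at 8105957 to 8106510 on chromosome 3. The false discovery rates of these peaks were 81.94% and 94.31%. Both MIR167a summits lay 1828 bp from the gene, and no protein-coding gene was within 5.3 kb of them. The annotated gene nearest to both was a long noncoding RNA gene, AT3G04325.

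The genes of miR390, which starts the making of trans-acting siRNAs against ARF3 and ARF4 from the TAS3 transcript, both held a peak in 2 lists. MIR390b had folds of 2.05 and 2.88 in lists 2 and 3 with the summit inside the protein-coding gene TAF15b. MIR390a had 0.76 in list 1 and 2.81 in list 2, and these peaks did not overlap each other. It was the only one of the 21 genes whose peaks of different lists did not overlap in any pair. MIR393a and MIR393b restrain the auxin receptor genes TIR1, AFB2 and AFB3.

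The highest folds among these genes stood at miR166, which with miR165 silences class III HD-Zip genes and so sets leaf polarity and meristem function. MIR166e had folds of 8.18 in list 2 and 12.71 in list 3 at 16775079 to 16776727 on chromosome 5, with 455 and 386 tags. By fold it ranked 27 among all peaks of list 2 and 27 among those of list 3. Its summit was 718 bp from the miRNA gene in both lists and 675 bp from AT5G41908, so the 2 genes were about equally near. Its list 2 peak had a false discovery rate of 0.00%, and was the only list 2 peak at these genes with 1% or less, while the list 3 peak had 15.71%. A second region, at 16773625 to 16774233, had folds of 2.21 and 3.25, and list 1 had no peak at MIR166e.

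MIR166a was enriched 3.36-fold in list 2 and 5.20-fold in list 3 at 19175475 to 19176539 on chromosome 2, with summits 284 and 125 bp from the gene and over 4.7 kb from any protein-coding gene. MIR166g had 1.47 in list 1 and 1.99 in list 2, with summits 57 and 46 bp away. MIR166b had a peak in list 3 alone, of fold 3.06 and a false discovery rate of 92.42%. MIR166c, MIR166d, MIR166f and both MIR165 genes had no assigned peak.

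The families that act on the miRNA machinery differed. MIR168a, whose product silences AGO1, had overlapping peaks in all 3 lists, and their folds were 1.08 in list 1, 4.22 in list 2 and 6.88 in list 3. The list 2 and list 3 peaks both spanned 10577967 to 10579640 on chromosome 4, with 379 and 311 tags and a summit 379 bp from the gene, against 852 bp to the nearest protein-coding gene. MIR168b had no assigned peak. MIR162a, whose product silences DCL1, had folds of 1.52 in list 1 and 2.15 in list 2 with summits inside AT5G08180, and MIR162b had a list 2 peak of 1.8.

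MIR159a and MIR159b, which silence GAMYB-like MYB genes, both had a peak in all 3 lists. At MIR159a the list 3 peak spanned 27711475 to 27714899 on chromosome 1 with a fold of 7.69 and 705 tags. List 2 covered most of the same stretch with separate peaks of fold 2.00 and 3.78. List 1 had only narrow peaks within it, 341 and 321 bp wide, with folds of 0.91 and 0.72. Their summits lay 1211 and 1176 bp from MIR159a, and a protein-coding gene was 318 bp from the second. The summit of highest fold in lists 2 and 3 lay 434 and 406 bp from MIR159a and over 1 kb from CDKD1;1, the nearest protein-coding gene. MIR159b was enriched 4.61-fold in list 2 and 6.61-fold in list 3 at 6219180 to 6219900 on chromosome 1, while its list 1 peak of 0.79 stood on the other side of the gene. The summits lay 1096 and 1140 bp from MIR159b and 1166 and 1122 bp from AT1G18070, so that which gene was nearer differed between the lists.

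Both genes of miR396, which silences growth-regulating factors (GRF) and so limits cell proliferation, had a peak in all 3 lists, and no protein-coding gene lay within 2.9 kb of any summit assigned to them. MIR396b had folds of 3.16 in list 2 and 6.17 in list 3 at 13612128 to 13613074 on chromosome 5. The overlapping list 1 peak had 1.09, and a list 1 peak farther out had 1.72. The nearest protein-coding gene was over 7.9 kb from the list 2 and list 3 summits. MIR396a held 3 regions of lists 2 and 3 within 2 kb. The one over the gene, at 4142274 to 4142893 of chromosome 2, reached 1.33, 3.12 and 3.43 in lists 1 to 3. The other two had 1.91 and 2.75, and 2.32 and 4.02, in lists 2 and 3. The list 3 summit of fold 3.43 was the only one of lists 2 and 3 inside a miRNA gene of these families.

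**Figure D4:**
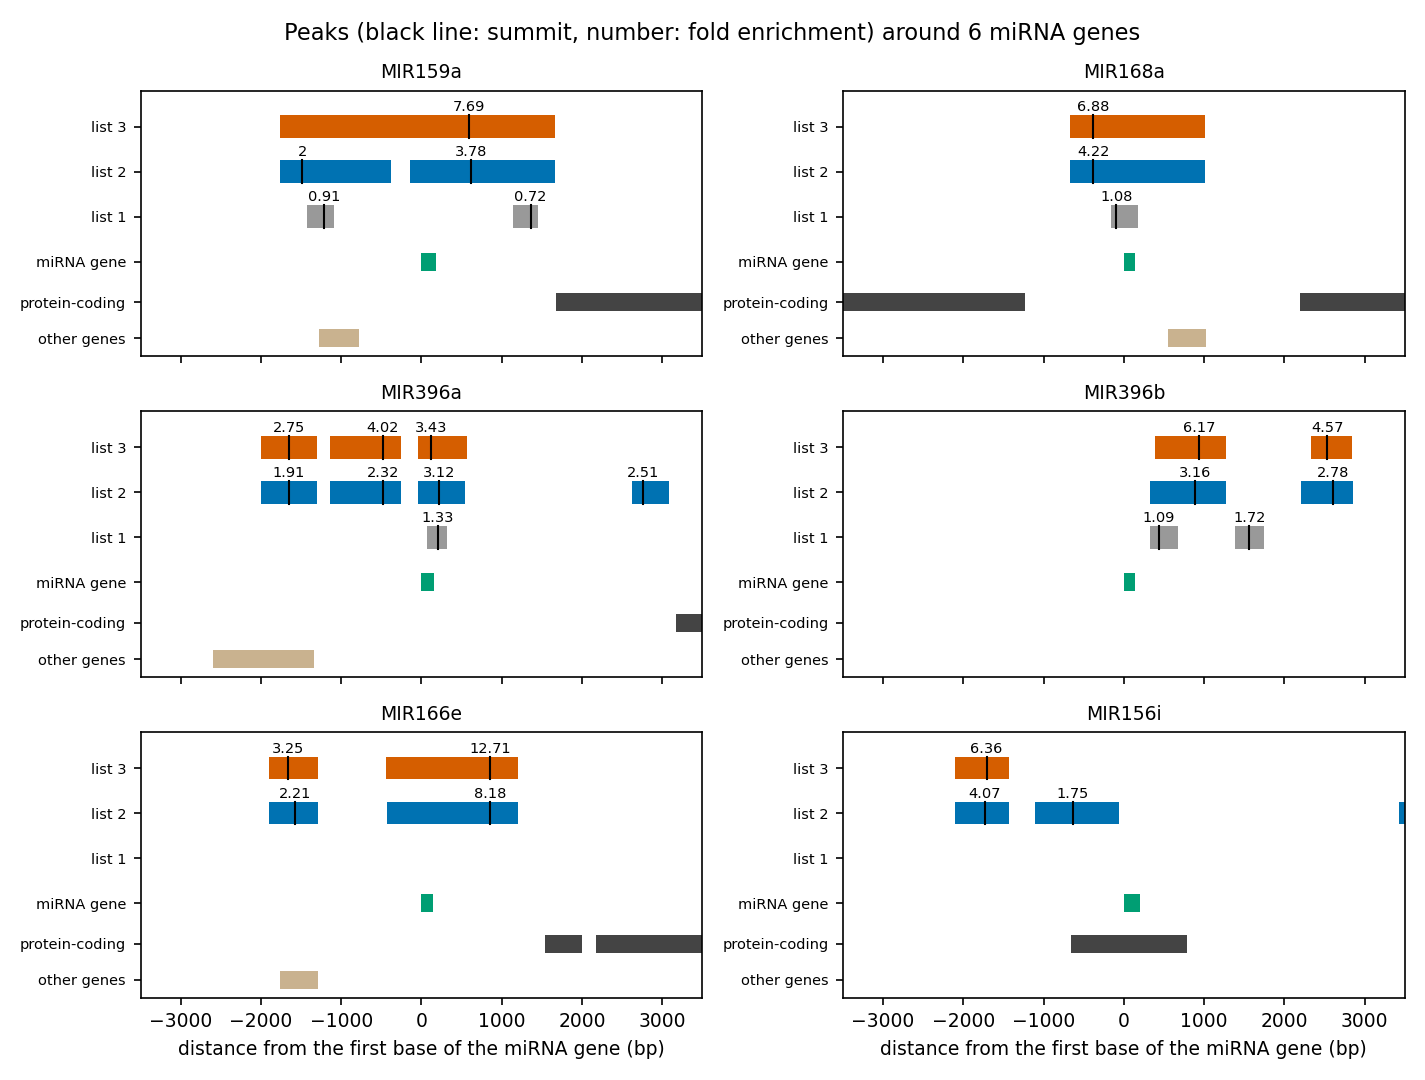
Peaks of the 3 lists (bars; black line, summit; number, fold enrichment) around 6 miRNA genes (green), with protein-coding genes (dark grey) and other annotated genes (tan), by distance in bp from the first base of the miRNA gene towards higher coordinates. List 3 has 1 peak over MIR159a where list 2 has 2, and MIR156i lies inside a protein-coding gene, SPL4.

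Of miR171, which silences HAM (SCL) genes of the shoot meristem, MIR171b had folds of 2.38 and 3.45 in lists 2 and 3 with summits inside AT1G11730. A list 3 peak of 3.18 had its summit 311 bp from MIR171b and 1279 bp from AT1G11740, and a list 2 peak of 1.98 had AT1G11740 nearer. MIR170, which belongs with it, had list 1 peaks only, with folds from 0.57 to 0.62. The largest family, miR169, which silences NF-YA subunits, had a peak in both list 2 and list 3 at MIR169b alone. Its folds were 1.31, 2.36 and 4.01 in lists 1 to 3, at 8529085 to 8529839 on chromosome 5, and AT5G24830 was nearer to each summit. MIR169a had 2 regions of lists 1 and 2. At 4357496 to 4360017 on chromosome 3 the folds were 0.77 in list 1 and 2.80 in list 2, whose summit lay 461 bp from the gene. At 4360446 to 4361671, with AT3G13410 nearer, they were 1.43 and 2.41. No peak was assigned to MIR169i, MIR169j, MIR169k, MIR169l, MIR169m or MIR169n. These genes stand close together on chromosome 3 (AT3G26812 to AT3G26819) but were counted singly, so their lack of peaks is not independent.

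Of 17 genes of the MIR395, MIR397, MIR398 and MIR399 families, grouped after their values were seen, 0 had a peak in list 2 or in list 3. List 2 had a peak at 19.0% of protein-coding genes and 12.9% of other miRNA genes, and list 3 at 14.2% and 6.01%. The difference from 0 of 17 genes was not tested. Nor was the absence particular to these families. The MIR158, MIR161, MIR163, MIR164, MIR165, MIR170, MIR391, MIR393 and MIR394 genes also had no peak in list 2 or list 3. Of the 26 families, 13 had a gene with a list 2 peak and 11 had one with a list 3 peak. Neighbouring genes such as MIR395a and MIR395b were counted singly. The 17 were the 6 MIR395 genes, which serve sulfate assimilation, the 6 MIR399 genes, which serve phosphate uptake, and the 3 MIR398 and 2 MIR397 genes, which act on copper proteins. List 1 had a peak at 3 MIR395 genes, 1 MIR399 gene and 1 MIR398 gene. A single list 1 peak of fold 1.90, at 9363618 to 9363842 on chromosome 1, was assigned to both MIR395a and MIR395b. MIR164a, of a family that silences CUC and other NAC genes, had list 1 peaks of 0.92 and 0.75. MIR158, MIR161, MIR391 and MIR394 genes had none, and MIR163 had a list 1 peak of 0.93 with its summit in the gene.

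Whether a protein-coding gene was nearer differed between the lists. Each peak was judged by its nearest conserved miRNA gene, as annotated and without the longer precursor. A protein-coding gene was nearer for 21 of 36 peaks in list 1 (58.3%), 11 of 31 in list 2 (35.5%) and 6 of 22 in list 3 (27.3%). For peaks at other miRNA genes the shares were 66.7%, 62.2% and 68.8%. Few of the conserved genes' summits lay inside protein-coding genes, at 22.2%, 12.9% and 9.09% of the peaks in lists 1, 2 and 3, against 63.0%, 38.6% and 35.4% of all peaks. These peaks were picked from windows of which 73.2% lay outside protein-coding genes, so the shares are not directly comparable with those of all peaks. For other miRNA genes 54.8% of the windows lay outside, so their shares are not directly comparable either. Counting genes of every kind, the nearest to the summit was a miRNA gene for 13, 12 and 11 peaks and a long noncoding RNA gene for 2, 7 and 5.

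Only those peaks were then kept for which no protein-coding gene was nearer. Both list 2 and list 3 had such a peak at 10 genes (10.8%), against 1.29% of other miRNA genes. A larger part of the windows of other miRNA genes lay inside protein-coding genes, so these shares are not directly comparable. The 10 genes were MIR156c, MIR159a, MIR160a, MIR166a, MIR166e, MIR167a, MIR168a, MIR172a, MIR396a and MIR396b. MIR166e stood among them only through its weaker region, of folds 2.21 and 3.25. For all 3 lists the count was 4 genes, MIR159a, MIR168a, MIR396a and MIR396b. When the miRNA gene had to be the nearest annotated gene of any kind, 7 genes had a peak in both list 2 and list 3. That was 7.53%, against 6.43% of protein-coding genes under the same setting. The annotation used carries no strand, so upstream and downstream sides could not be told apart.

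**Figure D5:**
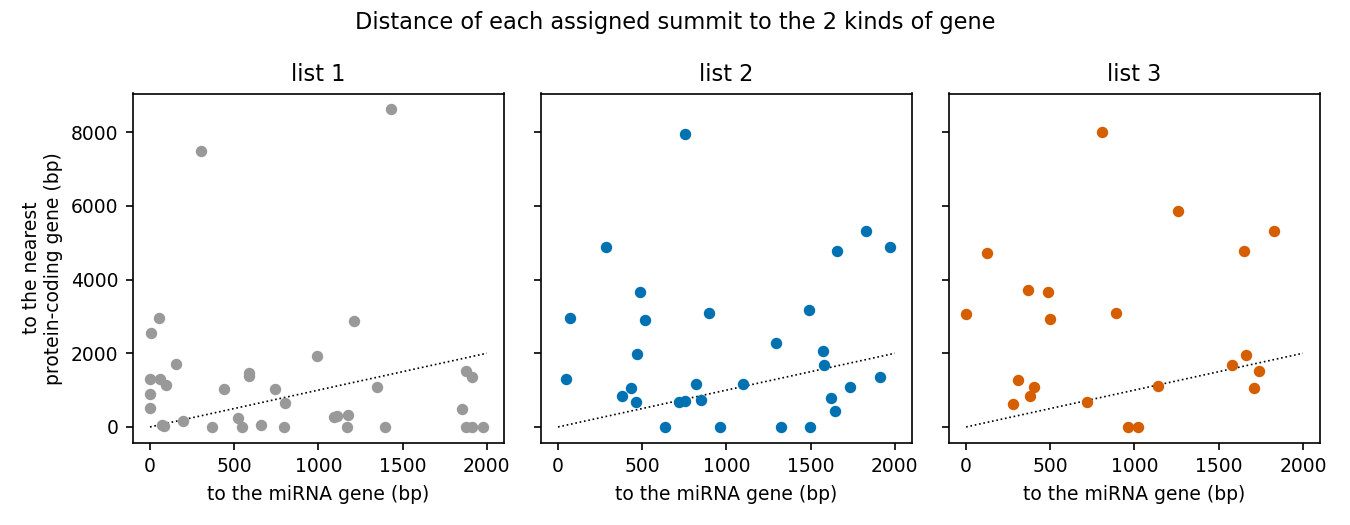
Distance in bp of each assigned summit to its miRNA gene (horizontal) and to the nearest protein-coding gene (vertical), 1 point per gene and peak, for lists 1, 2 and 3. Points below the dotted line have a nearer protein-coding gene, as 6 of 22 peaks in list 3 do.

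The peaks at conserved miRNA genes had a median fold of 1.04, 2.36 and 3.69 in lists 1, 2 and 3, against 0.990, 2.46 and 4.17 for all peaks. In list 1, 17 of the 36 peaks had a fold below 1, as had 51.2% of all list 1 peaks. Their median width was 340, 741 and 762 bp, against 339, 811 and 850 bp. Their median false discovery rate was 2.59%, 54.6% and 60.4%, against 3.81%, 63.9% and 65.2% for all peaks. A rate of 1% or less was given to 1 of the 31 peaks in list 2 and 0 of the 22 in list 3, against 85 of all 4093 and 2 of all 2931 peaks. The summit farthest inside the 2 kb limit lay 1978 bp from MIR156j in list 1, 1974 bp from MIR172a in list 2 and 1828 bp from MIR167a in list 3. Among genes with no assigned peak in the list in question, the nearest summit lay 2018 bp from MIR397a, 2331 bp from MIR156g and 2553 bp from MIR156e. Their folds were 1.31, 4.21 and 3.65. Summits beyond 2 kb of genes that already had a peak in that list were not considered.

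Lists 2 and 3 overlapped in 19 peak pairs at these genes, and the list 3 fold was 1.10 to 3.85 times the list 2 fold, with a median of 1.56, against 1.59 over all 2454 overlapping pairs. Of the 19 pairs 10 began at the same base (52.6%), against 50.5% of all pairs. Lists 1 and 2 overlapped in 12 pairs and lists 1 and 3 in 6. The median gap between summits was 23.0 bp for lists 2 and 3 and 254 bp for lists 1 and 2. By the median, summits of list 1 thus lay farther from those of list 2 than summits of list 3 did.

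Known targets of these families held peaks more often than protein-coding genes at large in lists 2 and 3, a difference that was not tested. Of 71 target genes, 21 had a peak in both list 2 and list 3 (29.6%), against 11.9% of protein-coding genes, and 10 had one in all 3 lists (14.1%), against 7.82%. By list, 50.7%, 36.6% and 33.8% of the targets held a peak in lists 1, 2 and 3, against 53.2%, 19.0% and 14.2% of protein-coding genes. ARF8, a target of miR167 that carries auxin response, came first by median fold among those in all 3 lists, with 2.64, 5.01 and 6.87 in lists 1 to 3. PHV, a class III HD-Zip gene under miR166, had 1.32, 4.31 and 6.03. ARF10 had 0.66, 3.16 and 5.75, SPL2 had 1.02, 3.01 and 5.76, and GRF2 had 0.84, 2.86 and 4.77. For CUC2, which marks organ boundaries, they were 1.5, 2.71 and 4.51. NF-YA9, a target of miR169 without a list 1 peak, had 4.18 in list 2 and 7.61 in list 3.

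In some families both the miRNA genes and their targets held peaks, and in others not. For miR396 both genes and 3 of 7 GRF targets had a peak in lists 2 and 3, and for miR167 it was 1 of 4 genes and both targets. For miR156 and miR157 it was 2 of 14 genes and 4 of 11 SPL targets, 1 of the 4 being SPL4, which shares its peak with MIR156i. For miR172 it was 1 of 5 genes and 0 of 6 targets. For miR393 it was 0 of 2 genes and 2 of 3 targets, and for miR395 0 of 6 and 0 of 4.

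Of 29 genes of the small RNA machinery, 22 had a peak in list 1 (75.9%), 4 in list 2 (13.8%) and 6 in list 3 (20.7%), against 53.2%, 19.0% and 14.2% of protein-coding genes. Both list 2 and list 3 had one at 3 genes (10.3%, against 11.9%), each of them an ARGONAUTE gene with a peak in all 3 lists, which was found at no other gene of the machinery. AGO6, which acts in DNA methylation, had folds of 1.25, 3.02 and 5.42 in lists 1 to 3. AGO1, the main miRNA effector and the target of miR168, had 1.53, 2.00 and 2.86. AGO7, the partner of miR390, had 1.37, 1.59 and 2.91. DCL2, DRB2 and DDL had a peak in lists 1 and 3, with list 3 folds of 3.13, 3.12 and 2.80. DCL1, which makes the miRNAs and is the target of miR162, had a list 1 peak alone, with a fold of 1.37.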

How the data were processed

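Peaks were called by the authors per PIF4-Myc library against a wild-type ChIP, with MACS 1.4.0rc2 (lists 1 and 3) or 1.4.1 (list 2) at a p cutoff of 1.00e-05, per the file headers. The submitters' processing notes also name CASAVA 1.8.0, Bowtie 0.12.7 and build TAIR10. Tags per peak were deposited as read counts in lists 2 and 3. In list 1 all tag values were multiples of 5 and, like the deposited peak score, a multiple of the negative log10 p-value, were treated as a score. Fold enrichment is the authors' ratio, and the false discovery rate a percent from the authors' peak caller. The filtered treatment tags of list 1 (112342435) exceed its total.

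Gene names and positions came from RefSeq annotation TAIR10.1, taken to share nuclear coordinates with TAIR10. MIR3932a, MIR3932b and MIR3933, whose last digits could be read as suffixes, were left out. All 98 target and machinery genes were found by locus tag. Genes, lists and window were chosen with earlier results of these data known. Named genes are all members with a peak in at least 2 lists. Among those with 1 list, the 5 of highest fold per list were named. Up to 6 targets and 6 machinery genes were named by number of lists and then median fold. That median was taken over the lists with a peak, list 1 included, and served only to choose and order names. All other miRNA genes, and SPL4, SPL9, NF-YA9 and DCL1, were named after their values were seen. No test was run, since the lists hold calls without values per library. The planned motif search could not be made, as no sequence was used here. Python 3.11.15 with pandas 2.3.3 was used. On simulated summits, 200 of 200 within the window and 0 of 200 beyond it were assigned.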

Additional observations from a re-analysis of the deposited data

How the results depend on the processing

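Of 75 recomputed counts of miRNA genes with a peak, 44 stayed within 1.5 times the count reported. The others follow, with the share of protein-coding genes under the same setting in parentheses where it was computed. With summits within 1 kb, list 1 had 19 genes (42.4%) and all 3 lists 3 (4.75%). Within 5 kb, list 1 had 58 (75.2%), list 2 had 35 (33.0%), at least 2 lists 35 (33.7%) and all 3 lists 17 (18.4%). With the nearest annotated gene of any kind alone, lists 1, 2 and 3 had 13 (31.8%), 11 (10.7%) and 9 (7.91%), at least 2 lists 10 (9.38%), lists 2 and 3 together 7 (6.43%), and all 3 lists 3 (3.34%). With no protein-coding gene nearer, at least 2 lists had 13. At a false discovery rate of 1% or less, lists 1 and 2 had 1 gene each (0.572% and 0.394%), and list 3 and every combination had 0 (at most 0.0510%). In the better-ranked 50% of each list, list 1 had 17 (29.7%), list 3 had 10 (7.17%) and all 3 lists 3 (2.46%). With equal numbers of peaks, list 1 had 14 (14.6%) and all 3 lists 2 (2.16%). In all 3 lists, 0 genes were left with an overlap of 50% (0.506%) or summits within 100 bp (1.85%).

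Leaving out 1 list at a time and asking for a peak in both that remained gave 6 to 15 genes, for at least 2 lists as for all 3, with 6 without list 2. For lists 2 and 3 together, leaving out list 1 gave the same 15, while leaving out list 2 or list 3 left the count of the other alone, 16 and 23. Of 48 folds at the 21 genes, 9 changed when the peak nearest to the gene stood for the highest. Adding MIR3932a, MIR3932b and MIR3933, or leaving out MIR158, MIR161 and MIR163 or genes overlapping a protein-coding gene, all chosen after seeing the data, moved no count by over 1.5 times. No paired analysis was possible because each list holds calls of 1 PIF4-Myc library against its control and no result comes from a test. The cause of these differences was not tested. Depth is known only per library, so a missing peak means none was called at this depth.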
